A study of Mus musculus with 57 samples.

Results

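A set of 133 loci was followed whose RNA was carried by the mouse MII oocyte, was still present in the early 2-cell embryo (E2-cell) and was largely gone in the late 2-cell embryo (L2-cell). All carry an XLOC name, which Cufflinks gives to a locus assembled from reads. They have no Ensembl identifier, and their positions, strands and sequences were not used here. They were chosen from the 4673 XLOC rows of the 59119 rows in the deposited table by 3 criteria on fragments per kilobase of transcript and per unit of sequencing depth (FPKM). The mean of the 2 MII libraries had to be at least 5 FPKM, the mean of the 2 E2-cell libraries had to exceed 0.5 times the MII mean, and the mean of the 2 L2-cell libraries had to be at most 0.25 times the E2-cell mean. Of 317 XLOC rows with at least 5 FPKM in the oocyte, 80 were already at or under 0.5 times the oocyte level at the E2-cell stage, 104 stayed above 0.25 times the E2-cell level at the L2-cell stage, and 133 met all criteria. The same criteria were met by 614 protein-coding Ensembl rows of 21918 and by 119 annotated lncRNA rows of 12841.

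The fully grown oocyte is transcriptionally silent, and the egg enters fertilization with a store of maternal RNA made during growth. In the mouse this store is removed in successive waves: an early one during meiotic maturation that depends on maternal factors such as BTG4, an adaptor that brings the CCR4-NOT deadenylase to messenger RNA, and a later one that follows activation of the embryo's own genome at the 2-cell stage and needs zygotic products. RNA that persists to the early 2-cell stage and is low by the late 2-cell stage has the timing of the later wave. MT2Mm is the long terminal repeat of the endogenous retrovirus MERVL, which acts as a promoter in 2-cell embryos.

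Total RNA libraries, read as pairs of 150 bases, were made from embryos in 57 samples of 18 groups; the protocol names a TruSeq Stranded kit with removal of ribosomal RNA for the developmental stages and a SMARTer Stranded kit for small amounts, without saying which samples the latter served. Wild-type C57BL/6 material gave the MII oocyte, the zygote, E2-cell and L2-cell embryos, the 4-cell and 8-cell stages, the morula and the blastocyst. Wild-type BDF1 embryos gave 14, 17 and 20 hours after fertilization, each with 2 columns; the stage libraries were made from pools of 150 to 200 embryos. In BDF1 embryos, LncR-3363 KD-1cell (4 columns) and KD-2cell (1 column) are a knockdown of a long noncoding RNA with an antisense oligonucleotide (ASO, 20 uM), and wild-type Ctrl has 4 columns. The MT2Mm KO groups, from BDF1 mice with a listed age of 6 to 8 weeks, were sampled at the late 1-cell stage (Late1c) and the early 2-cell stage (Early2c) with wild-type controls, 3 columns each. For the knockout, guide RNA was diluted to 150 ng/uL and Cas9 mRNA to 100 ng/uL, and MII oocytes received 5 to 10 pL in either experiment. Fertilization was in vitro with sperm of BDF1 males. The developmental stage of the knockdown samples is given only as embryo. No injection is listed for any control, so whether the controls were injected is not known here. MT2Mm has many copies in the genome, and how many of them were edited in a pool is not given. LncR-3363 was matched to no row, its columns carry another short name, and MT2Mm, a repeat, has no row, so neither target could be checked in these values.

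Depth is unknown, since the table holds FPKM and no counts. The FPKM of a column summed to between 311543 and 720832, and 10704 to 12892 rows reached 1 FPKM. Every maternal gene of a list of 38 except 1 (oocyte genes such as Zp3 and Bmp15) reached 1 FPKM in both oocyte columns, and 23 of 25 blastocyst genes did so in both blastocyst columns. Cumulus and granulosa cell markers were close to absent from the oocyte columns: 5 of 19 were listed at 0 in both, and 2 reached 1 FPKM in both. Over rows that reached 1 FPKM, the 2 zygote columns were less alike (r = 0.91 across rows, log2 scale) than the replicates of any other group. FPKM is a share of the library, so less of a transcript per embryo and more of all other RNA cannot be told apart.

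In the stages used to choose them, the loci ranged in the oocyte from 5.01 FPKM (XLOC_048125) to 287 FPKM (XLOC_051958), with a median of 9.11. The zygote, which the criteria did not use, had a median of 12.7 FPKM. The medians were 8.23 FPKM at the E2-cell stage and 1.08 FPKM at the L2-cell stage, where 3 loci were listed at 0 in both libraries. Per locus, the median ratio of E2-cell to MII was 0.81, and 38 loci were above 1. The median ratio of L2-cell to E2-cell was 0.139, and 37 loci were below 0.1. These ratios follow from the criteria and were not tested. The summed level of the 133 loci was 2230 ± 262 FPKM (SD, n = 2) in the oocyte, 2558 ± 289 in the zygote, 1874 ± 121 at the E2-cell stage and 269 ± 12.8 at the L2-cell stage.

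**Figure D1:**
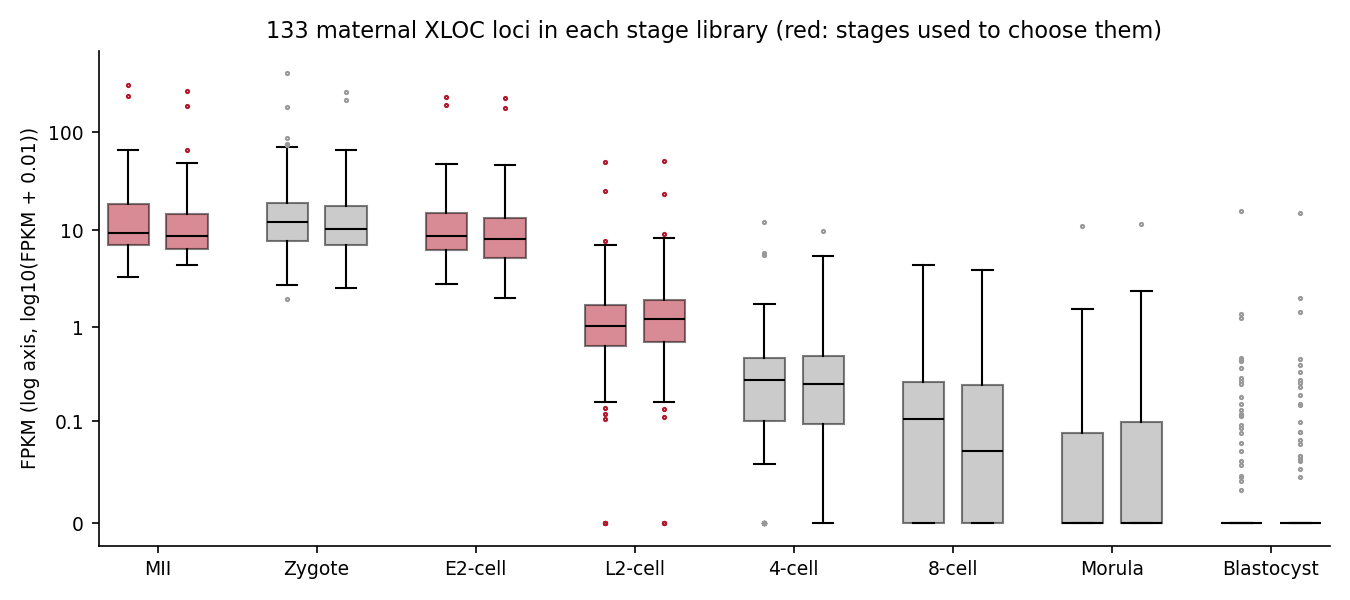
Level of the 133 loci in each library of the 8 stages (FPKM on a log axis, drawn as log10 of FPKM + 0.01; boxes are quartiles, lines medians, whiskers the range within 1.5 box lengths, points the loci beyond). The medians lie near 9 FPKM in the oocyte columns, near 1 FPKM in the L2-cell columns and at 0 in the morula and blastocyst columns; red marks the stages used to choose the loci.

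The levels were continuous across each threshold. In the oocyte XLOC_048125, XLOC_024771 and XLOC_037614 lay just inside at 5.01, 5.04 and 5.08 FPKM, and XLOC_020163, XLOC_015991 and XLOC_043048 just outside at 4.99 to 5.00. For E2-cell over MII, XLOC_023469, XLOC_009470 and XLOC_005005 were inside at 0.503, 0.505 and 0.513, against 0.489, 0.482 and 0.479 for XLOC_020162, XLOC_014001 and XLOC_008295 outside. For L2-cell over E2-cell, XLOC_027299, XLOC_050582 and XLOC_020169 were inside at 0.249, 0.248 and 0.245, and XLOC_039922, XLOC_047663 and XLOC_000060 were outside at 0.257, 0.261 and 0.267.

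A pair of loci carried a large part of the summed level. XLOC_051958 stood at 309 and 266 FPKM in the oocyte columns, 403 and 258 in the zygote, 190 and 176 at E2-cell, 25.04 and 23.4 at L2-cell, 5.79 and 5.47 at the 4-cell stage and 0 in both blastocyst columns. XLOC_000038 stood at 234 and 186 FPKM in the oocyte, 181 and 214 in the zygote, 228 and 224 at E2-cell, 49.97 and 50.4 at L2-cell and 12.1 and 9.88 at the 4-cell stage. XLOC_051958 was lower at E2-cell than in either oocyte column, whereas XLOC_000038 at E2-cell lay within the range of its oocyte columns. Without this pair the summed level was 1733 ± 198 FPKM in the oocyte and 195 ± 13.7 at L2-cell. The next in the oocyte were XLOC_018412 (55.0 and 66.6 FPKM), XLOC_012803 (57.4 and 48.3) and XLOC_023146 (65.5 and 36.7). At L2-cell these 3 had 3.86 and 2.49, 3.16 and 3.80, and 4.23 and 3.07 FPKM. XLOC_019085, XLOC_042711, XLOC_020753, XLOC_001332 and XLOC_051620 complete the 10 highest in the oocyte, at means between 35.2 and 46.5 FPKM. After XLOC_000038 and XLOC_051958, the highest loci at L2-cell were XLOC_042711 (7.04 and 9.04 FPKM) and XLOC_001772 (7.68 and 8.36).

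Between oocyte and zygote the loci moved apart, but so did the zygote libraries. The ratio of the zygote to the oocyte mean had a median of 1.19 and was above 1 for 94 loci. It ranged from 0.614 for XLOC_019085, with 12.1 and 44.9 FPKM in the zygote columns, to 2.37 for XLOC_040571, with 17.3 and 9.73. For XLOC_019085 the zygote columns lay farther apart than the means of the 2 groups, and for XLOC_040571 nearly as far. XLOC_021022 (2.21) and XLOC_034017 (1.88) also had high ratios, and XLOC_001349 (0.651) and XLOC_031130 (0.685) low ones. The column names of these stages carry tags that may mark batches. Within the tag shared by 1 oocyte and 1 zygote column the median ratio was 0.995, and all rows with a mean of at least 1 FPKM had 0.994. The other zygote column over the other oocyte column gave 1.36, against 1.06 over all such rows. Within the tag shared by the L2-cell columns and an oocyte column, the median ratio of L2-cell to oocyte was 0.12, against 0.775 over all such rows. The criteria used both of these stages, so this low ratio follows from them and was not tested.

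After the L2-cell stage the loci went on to near 0. The median fell to 0.262 FPKM at the 4-cell, 0.0876 at the 8-cell and 0.0171 at the morula stage, and was 0 in the blastocyst, where 99 loci were listed at 0 in both columns. In none of the 8 columns from 4-cell to blastocyst did 121 loci reach 1 FPKM. The summed level went from 66.9 ± 1.10 FPKM (SD, n = 2) at the 4-cell stage to 21.9 ± 0.567 in the blastocyst, and most of the latter was XLOC_000027.

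XLOC_000027 was present in the oocyte, low at L2-cell and high again later. It stood at 8.99 and 10.9 FPKM in the oocyte, 8.71 and 9.79 at E2-cell, 1.77 and 1.35 at L2-cell, 5.60 and 4.89 at the 4-cell stage, 4.39 and 3.92 at the 8-cell stage, 11.0 and 11.6 in the morula and 15.8 and 15.0 in the blastocyst. Both blastocyst columns exceeded both oocyte columns. Between the 4-cell stage and the blastocyst it rose by 1.47 ± 0.09 (log2 of FPKM + 0.5, ± SE; limma, adjusted p = 9.1e-06). XLOC_048470 had 0.261 and 0.216 FPKM at the 4-cell stage and 1.37 and 2.00 in the blastocyst. It passed the filter on low values only through the blastocyst columns, so it is described with no test. XLOC_009630, the other locus with at least 1 FPKM in both blastocyst columns, had 1.10 and 1.55 FPKM at the 4-cell stage and 1.25 and 1.45 in the blastocyst. XLOC_011378, next in order, was at 0.444 and 0.409 FPKM there.

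Only 8 of the 133 loci passed the filter of that fit (at least 1 FPKM in as many columns as the smallest group), and 125 were not tested. Of the 8, 2 rose and 5 fell, where 42.4% of 14557 tested rows rose and 38.5% fell. Loci that pass through the stage where they are high had to differ, so these counts describe only the 8. The 5 that fell were at 0 in both blastocyst columns and passed only through the 4-cell columns, so they too are given as levels. At the 4-cell stage XLOC_000038 had 12.1 and 9.88 FPKM, XLOC_051958 5.79 and 5.47, XLOC_042711 1.75 and 3.03, XLOC_001332 1.67 and 1.66, and XLOC_054177 1.65 and 1.49. With no filter, 4 loci were called higher and 72 lower, where 8015 and 9038 of 33938 rows were. But 121 of the 133 loci reached 1 FPKM in none of the 8 columns, and 99 were at 0 in both blastocyst columns. The counts without a filter therefore describe levels near 0 and are no test of a fall.

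The 3 times after fertilization were tested on embryos that the criteria did not use. Between 14 and 17 hours 67 of the 133 loci rose and 1 fell, where 20.5% of the 12834 tested rows rose and 16.5% fell. The median change of the loci was 0.27 on the log2 scale, against 0.05 for all tested rows. XLOC_020974 rose from 6.38 and 7.14 FPKM to 11.8 and 12.2 (0.78 ± 0.07, adjusted p = 0.00097). XLOC_051359 rose from 9.06 and 8.25 to 14.3 and 16.2 FPKM (0.78 ± 0.13), and XLOC_005173 from 4.90 and 4.88 to 7.80 and 8.78 FPKM (0.70 ± 0.07). XLOC_005005 and XLOC_003311 each rose by 0.67. The locus that fell was XLOC_000896, from 10.8 and 11.4 to 8.84 and 9.34 FPKM (-0.28 ± 0.06, adjusted p = 0.019). Its call was lost without the second 14-hour or the first 17-hour column (adjusted p of 0.097 and 0.085). Scaling the columns by the median of ratios gave 55 rises and 4 falls and turned the calls of all tested rows from 2628 higher and 2124 lower to 1872 and 2700. In none of these loci did the columns of the 2 times overlap. The other sets of maternal rows rose too. Of the 614 protein-coding rows that met the criteria 260 rose and 68 fell (median 0.13). Of the 119 lncRNA rows 63 rose and 6 fell (0.25). Of the 104 XLOC rows that stayed past L2-cell 78 rose and 2 fell (0.40), and of the 80 already low at E2-cell 20 rose and 10 fell (0.09). The sets were not tested against each other.

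Between 17 and 20 hours the direction of most calls was the opposite: 2 loci rose and 33 fell, where 5.13% of tested rows rose and 14.5% fell. These comparisons share the 17-hour columns. The largest falls were XLOC_021100, from 5.30 and 5.63 to 2.43 and 3.61 FPKM (-0.78 ± 0.15, adjusted p = 0.02), and XLOC_005005, from 5.99 and 7.54 to 3.91 and 4.14 FPKM (-0.68 ± 0.11). XLOC_010639 fell by 0.65, XLOC_027391 by 0.56 and XLOC_000365 by 0.54. XLOC_020753 rose from 20.5 and 20.4 to 27.8 and 27.2 FPKM (0.42 ± 0.04), and XLOC_031130 by 0.30 ± 0.08. Scaling by the median of ratios gave 3 rises and 21 falls, and moved the calls of all tested rows from 659 higher and 1862 lower to 777 and 1294. Leaving out any of the 4 columns gave 10 to 16 falls, 9 to 12 of them among the 33, and for XLOC_031130 the adjusted p rose to between 0.1 and 0.16 without a 20-hour column or the second 17-hour column. The deposited column names mark both 17-hour libraries with "cat" and the other times with "merge", a difference in handling that cannot be told apart from time. Between 17 and 20 hours 53 of the 614 protein-coding rows rose and 91 fell, and 5 of the 119 lncRNA rows rose and 28 fell. Of the 104 XLOC rows that stayed past L2-cell 3 rose and 27 fell, and of the 80 already low at E2-cell 1 rose and 25 fell.

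The comparison of 20 with 14 hours avoids the 17-hour columns. In it 32 loci rose and 4 fell, where 16.2% of tested rows rose and 22.9% fell, and the median change was 0.13 for the loci and -0.01 for all tested rows. XLOC_007467 rose from 7.20 and 6.16 to 10.6 and 9.64 FPKM (0.57 ± 0.10, adjusted p = 0.0054). XLOC_000027 rose by 0.52, XLOC_004127 by 0.47, XLOC_033916 by 0.45 and XLOC_009630 by 0.42. XLOC_010639 (-0.44 ± 0.10), XLOC_000896 (-0.41 ± 0.06), XLOC_009397 (-0.26 ± 0.05) and XLOC_054177 (-0.20 ± 0.06, adjusted p = 0.049) fell. Without any 1 of the 4 columns 17 to 21 loci rose. The highest of the 3 means was at 17 hours for 97 loci, at 20 hours for 24 and at 14 hours for 12. The summed level was 1827 ± 14.1 FPKM (SD, n = 2) at 14 hours, 2240 ± 38.8 at 17 hours and 2016 ± 8.97 at 20 hours, so at 20 hours the sum was still above that at 14 hours in both columns. Between 14 and 20 hours 233 of the 614 protein-coding rows rose and 98 fell, and 30 of the 119 lncRNA rows rose and 7 fell. Of the 104 XLOC rows that stayed past L2-cell 55 rose and 4 fell, and of the 80 already low at E2-cell 2 rose and 21 fell.

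Most loci had begun to fall by the early 2-cell stage of the MT2Mm controls. From Late1c to Early2c 99 of the 133 loci fell and 4 rose, where 45.7% of 13180 tested rows fell and 33.5% rose (130 loci were tested). The median change was -0.70 over all 133 loci and -0.15 over the tested rows. A negative change was found for 118 loci, of which 40 were below -1, and for 7444 of the 13180 tested rows. The summed level was 1144 ± 41.1 FPKM (SD, n = 3) at Late1c and 666 ± 13.0 at Early2c. XLOC_054177 fell most, from 38.4, 36.1 and 36.5 to 9.02, 7.31 and 9.65 FPKM (-2.04 ± 0.08, adjusted p = 3.7e-10). XLOC_021022 went from 2.01, 1.04 and 1.57 to 0.0623, 0 and 0.174 FPKM. It passed the filter on low values only through Late1c columns, so it is described with no test, though it is counted among the 99. XLOC_004810 (-1.69 ± 0.17), XLOC_004799 (-1.68 ± 0.10) and XLOC_046783 (-1.63 ± 0.14) followed. In all 5 the columns of the 2 stages did not overlap. Other loci among the 99 also had Early2c control means under 1 FPKM. Examples are XLOC_013511 (2.08 to 0.664 FPKM), XLOC_023469 (1.75 to 0.774) and XLOC_044952 (1.20 to 0.422). They too may have passed the filter only through Late1c columns, and how many of the 99 did so was not counted.

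The abundant loci took part to different degrees. XLOC_051958 fell from 147, 123 and 137 to 59.8, 57.3 and 56.7 FPKM (-1.22 ± 0.06), and XLOC_018412 from 18.6, 18.4 and 18.3 to 6.78, 5.87 and 6.49 FPKM (-1.46 ± 0.06). XLOC_000038 fell less, from 131, 116 and 120 to 92.3, 92.7 and 96.9 FPKM (-0.38 ± 0.07). The 4 loci that rose were XLOC_007467 (1.01 ± 0.25, adjusted p = 0.0031), XLOC_025067 (0.53 ± 0.20), XLOC_013408 (0.37 ± 0.14) and XLOC_026124 (0.37 ± 0.10). XLOC_007467 stood at 1.60, 1.49 and 0.567 FPKM at Late1c and at 2.68, 3.02 and 2.77 at Early2c. The call of XLOC_025067 was lost without the third Late1c or the third Early2c column (adjusted p = 0.12 for each). That of XLOC_013408 was lost without the first or second column of either group (adjusted p up to 0.11). Scaling the columns by the median of ratios gave 86 falls and 11 rises, with medians of -0.52 for the loci and 0.03 for all rows.

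The other sets of maternal rows gave these counts in the same comparison, with medians over all rows of a set, tested or not. Of the 614 protein-coding rows that met the criteria 424 fell and 87 rose (median -0.50), and of the 119 annotated lncRNA rows 72 fell and 11 rose (median -0.50). Of the 80 XLOC rows that were already low at E2-cell 63 were tested, of which 57 fell and 1 rose (median -1.11), and of the 104 that stayed past L2-cell 101 were tested, of which 36 fell and 12 rose (median -0.15). Differences between the sets were not tested.

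At Late1c the MT2Mm knockout changed none of the loci by limma at an adjusted p under 0.05 (0 higher and 0 lower), where 0.0455% of tested rows were higher and 0.0683% lower. The smallest adjusted p of a locus was 0.26. At an unadjusted p under 0.05, 1 locus was higher and 16 were lower. The share of all tested rows at that threshold was not taken, so these counts have no baseline. The median change was -0.10 for the loci and -0.02 for all tested rows. A negative sign was found for 101 of 133 loci and for 7547 of 13180 tested rows. So it was for 453 of the 614 protein-coding rows that met the criteria and for 79 of the 104 XLOC rows that stayed past L2-cell. The summed level was 1062 ± 32.1 FPKM (SD, n = 3) in the knockout, and its highest column lay just below the lowest control column (1097 against 1098).

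At Early2c the loci were higher in the knockout. Of the 133 loci 74 rose and 0 fell, where 33.4% of tested rows rose and 15.6% fell. A positive sign was found for 122 loci and for 8180 of 13180 tested rows. At an unadjusted p under 0.05, 83 were higher and 1 was lower, again with no share of all tested rows as a baseline. The median change was 0.41, against 0.11 for all tested rows. The summed level was 926 ± 25.7 FPKM (SD, n = 3), against 666 ± 13.0 in the control, with no overlap of columns. Each knockout column had a median change of 0.39 to 0.46 from the control mean, and 114 to 119 loci lay above it. Scaling the columns by the median of ratios gave 62 loci higher and 3 lower. It moved the median of the loci to 0.28 and that of all tested rows to -0.02, whose calls changed from 4402 higher and 2056 lower to 3112 and 3401.

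XLOC_004810 showed the largest rise, from 0.873, 0.998 and 0.622 FPKM in the control to 2.49, 2.07 and 3.14 in the knockout (1.20 ± 0.17, adjusted p = 0.00015). XLOC_004799 rose from 4.26, 4.70 and 3.93 to 11.0, 8.23 and 10.5 FPKM (1.11 ± 0.10, adjusted p = 4.2e-06). XLOC_051359 rose from 3.78, 3.58 and 1.87 to 6.13, 6.59 and 8.15 FPKM (1.10 ± 0.24). Every knockout column of these loci exceeded every control column. XLOC_018412 rose from 6.78, 5.87 and 6.49 to 13.8, 13.2 and 12.7 FPKM (adjusted p = 2.4e-07), and XLOC_047837 from 5.29, 6.73 and 4.69 to 10.8, 11.5 and 12.0 FPKM (0.99 ± 0.11). XLOC_051958, the most abundant, rose from 59.8, 57.3 and 56.7 to 105, 95.8 and 101 FPKM (0.79 ± 0.06), whereas XLOC_000038 went from 92.3, 92.7 and 96.9 to 123, 109 and 108 FPKM (0.26 ± 0.07). XLOC_000027, the locus that returned in the blastocyst, rose by 0.95 ± 0.12, from 3.66, 3.13 and 2.68 to 7.003, 5.82 and 6.77 FPKM.

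**Figure D2:**
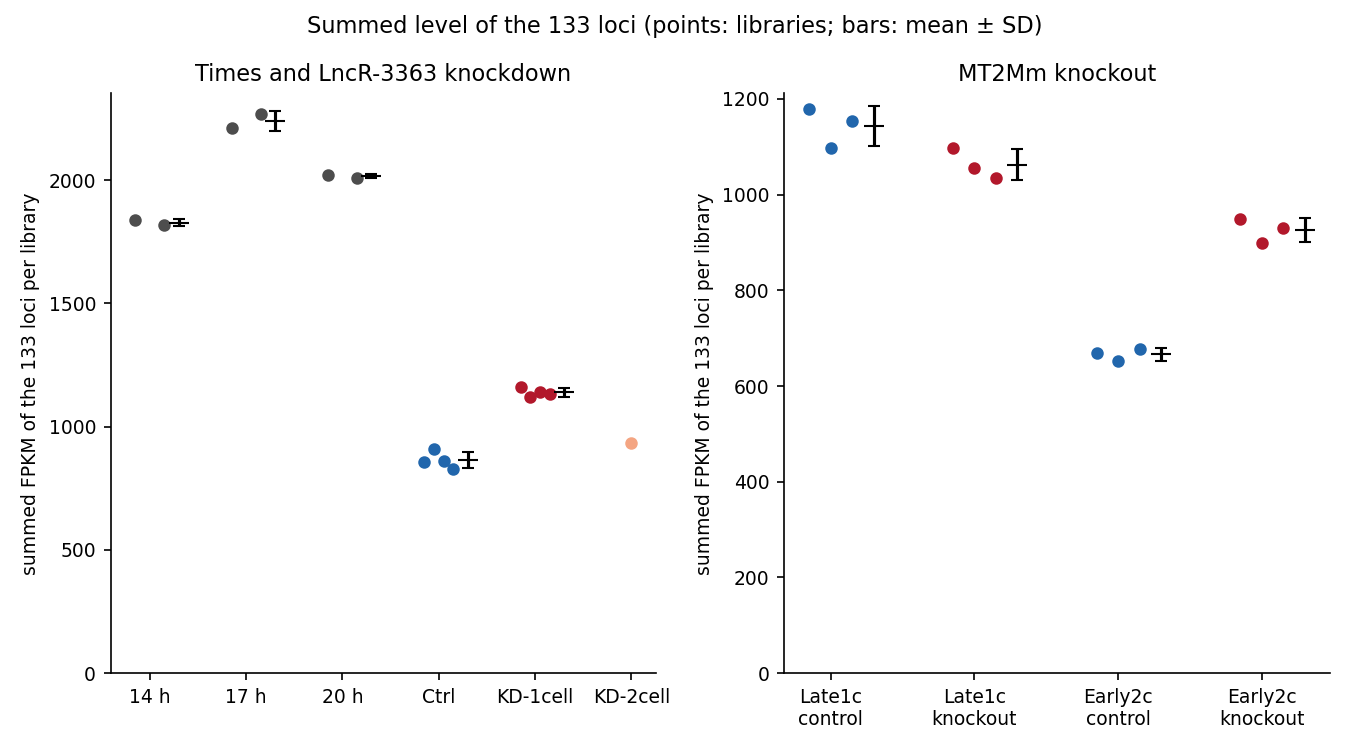
Summed FPKM of the 133 loci in each library (points) with the mean and SD of each group (bars), for the times and the LncR-3363 knockdown on the left and the MT2Mm groups on the right; both axes start at 0. The Early2c control columns lie at 652 to 678 FPKM and the Early2c knockout columns at 899 to 950.

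The knockout effect itself differed between the stages. The change from Late1c to Early2c was higher in the knockout for 70 loci and lower for 1 by the interaction term, where 25.7% of tested rows were higher and 11.6% lower. The median of the interaction was 0.51 for the loci and 0.13 for all tested rows. Within the knockout the median change from Late1c to Early2c was -0.14 and 2 loci were below -1, against -0.70 and 40 loci in the control. The change was higher in the knockout for 124 of the 133 loci and for 8243 of 13180 tested rows. Across the loci the changes of control and knockout, which share no columns, had a Pearson's r of 0.77 and a Spearman's rho of 0.73. The largest interactions were those of XLOC_051359 (1.41 ± 0.34), XLOC_004799 (1.40 ± 0.14), XLOC_004810 (1.39 ± 0.24), XLOC_047837 (1.179 ± 0.16) and XLOC_009397 (1.12 ± 0.18). Scaling by the median of ratios gave 54 higher and 1 lower, and all tested rows changed from 3382 higher and 1531 lower to 2275 and 2555.

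**Figure D3:**
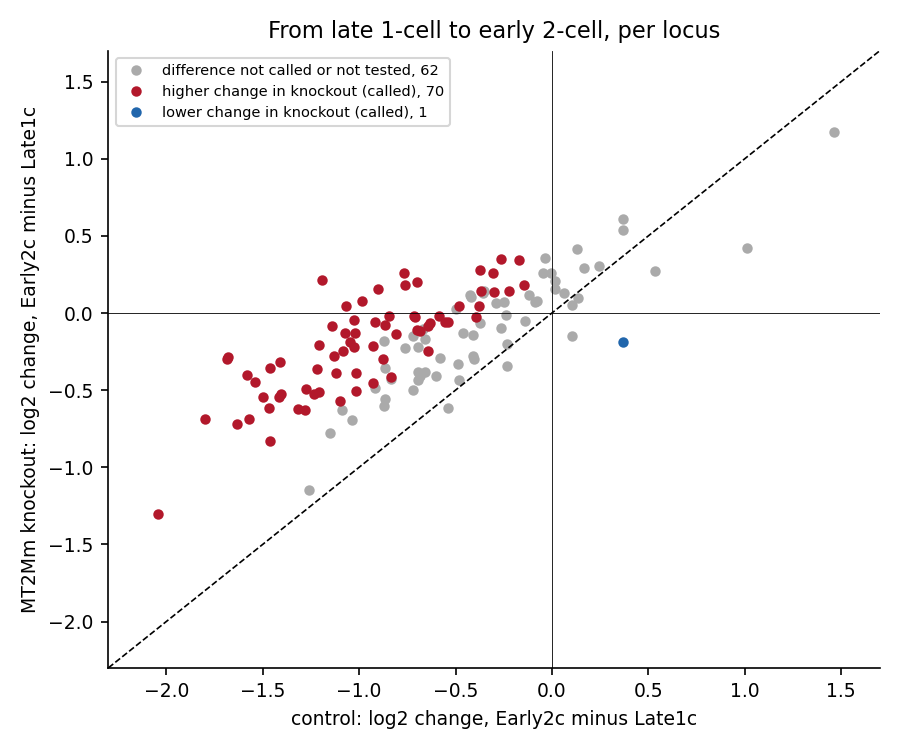
Change of each of the 133 loci from Late1c to Early2c (log2 of FPKM + 0.5) in the control on the x axis and in the MT2Mm knockout on the y axis, with the line of equal change dashed. Of the 133 loci 124 lie above the line, 70 of them called by the interaction term (red), and XLOC_013408 is called below it (blue).

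Of the 133 loci 9 had a negative interaction, the lowest at -0.59, and XLOC_013408 was the only locus called lower. It stood at 17.6, 19.9 and 22.3 FPKM in the Late1c control, 22.5, 27.6 and 27.8 in the Late1c knockout, 26.0, 26.3 and 24.9 in the Early2c control and 24.5, 26.5 and 17.7 in the Early2c knockout. The interaction was -0.56 ± 0.19 (adjusted p = 0.041), and it passed the threshold no longer on leaving out any 1 of 8 of the 12 columns (adjusted p of 0.057 to 0.097). XLOC_013408 also differed from nearly all other loci in its level between experiments: it had 3.87 and 9.68 FPKM in the zygote columns, and its Late1c control mean was higher by 1.49 on the log2 scale. Only 8 loci were higher in the Late1c control than in the zygote, and the median difference was -1.33.

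**Figure D4:**
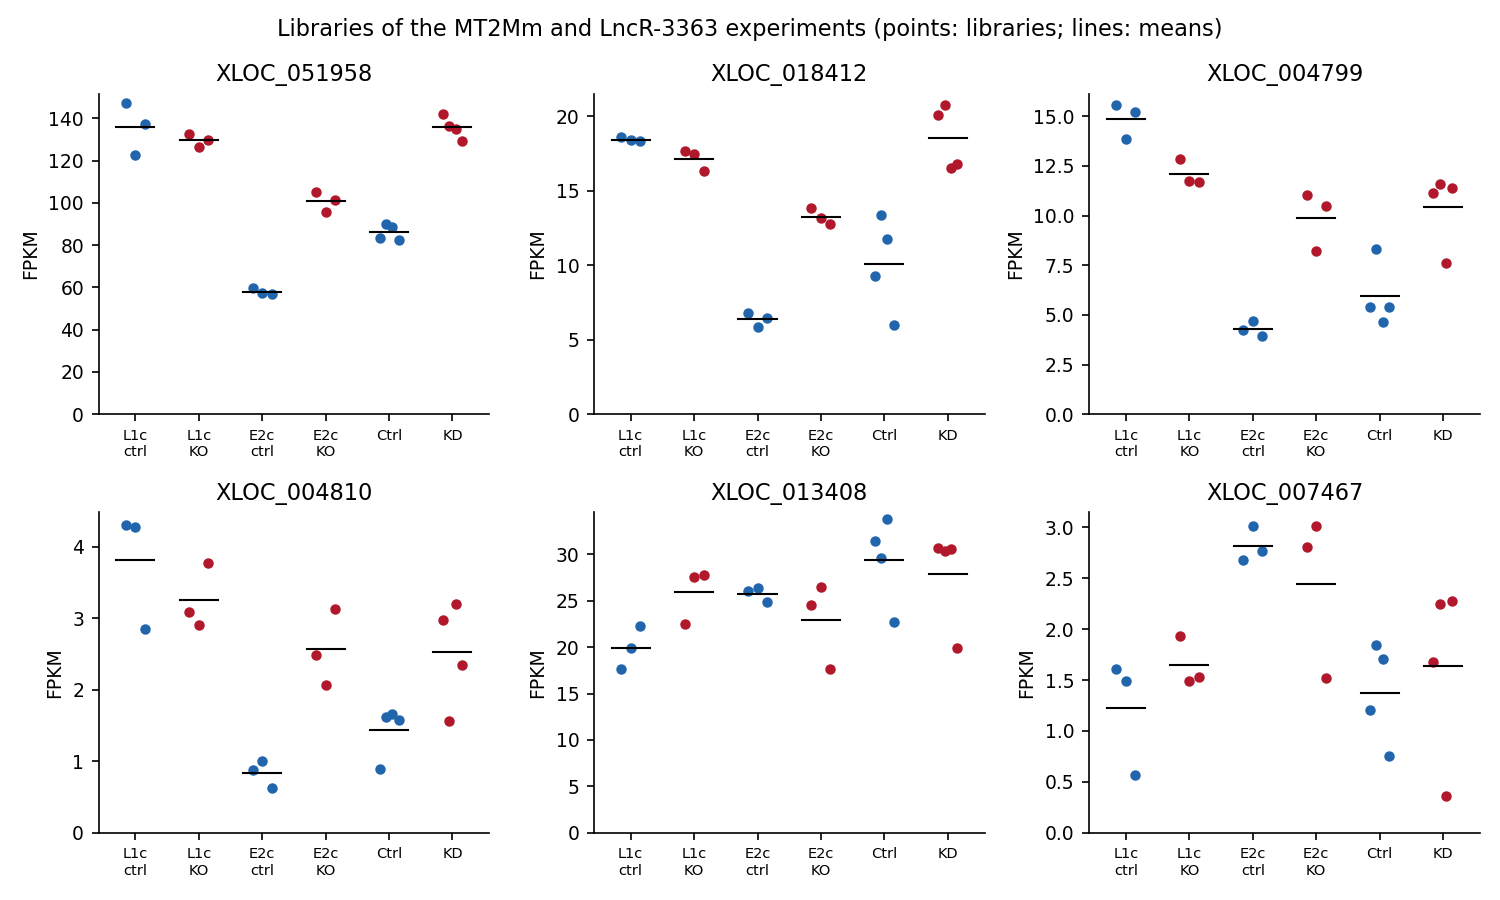
FPKM of 6 named loci in each library (points) of the MT2Mm and LncR-3363 experiments, with group means as lines and axes from 0 (L1c, Late1c; E2c, Early2c; KO, MT2Mm knockout; KD, KD-1cell). XLOC_051958, XLOC_018412, XLOC_004799 and XLOC_004810 are lower in the Early2c control than in the Early2c knockout, while XLOC_013408 and XLOC_007467 are not.

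In LncR-3363 KD-1cell embryos 53 of the 133 loci rose and 2 fell, where 29.8% of 11492 tested rows rose and 13.9% fell (125 loci were tested). The median change was 0.34 over the 133 loci and 0.12 over the tested rows. The summed level was 1139 ± 16.95 FPKM (SD, n = 4) in KD-1cell and 864 ± 33.1 in Ctrl, with no overlap of columns, and each knockdown column had a median change of 0.31 to 0.42 from the Ctrl mean. XLOC_023236 rose from 4.16, 4.51, 4.45 and 5.51 to 8.00, 8.14, 13.5 and 13.97 FPKM (1.10 ± 0.19, adjusted p = 0.0013). XLOC_005005 rose from 2.19, 2.37, 1.26 and 1.37 to 3.43, 3.31, 5.08 and 5.54 FPKM (1.08 ± 0.22). XLOC_023686 rose from 4.40, 4.22, 3.89 and 2.98 to 7.37, 9.05, 8.15 and 8.98 FPKM (1.03 ± 0.12). The knockdown columns of these 3 loci lay above all Ctrl columns. XLOC_018412 (0.90 ± 0.21) and XLOC_031742 (0.89 ± 0.15) came next. XLOC_009630, counted among the 53, had means of 0.587 FPKM in Ctrl and 1.21 in KD-1cell. It may have passed the filter only through KD-1cell columns. XLOC_051958 rose from 83.4, 90.1, 88.6 and 82.2 to 142, 137, 135 and 129 FPKM (0.66 ± 0.06, adjusted p = 1.8e-05), while XLOC_000038 had 125, 98.4, 100.3 and 103 FPKM in Ctrl and 122, 132, 88.9 and 125 in KD-1cell, which overlap.

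The 2 loci that fell were XLOC_027486, from 2.72, 3.37, 3.14 and 2.31 to 1.75, 2.05, 1.53 and 1.24 FPKM (-0.66 ± 0.15, adjusted p = 0.0069), and XLOC_028983, from 3.42, 4.27, 3.82 and 3.76 to 2.95, 2.44, 2.92 and 2.73 FPKM (-0.40 ± 0.10). Both rose in the Early2c knockout, by 0.62 ± 0.13 and 0.56 ± 0.09. Scaling by the median of ratios gave 36 loci higher and 7 lower, with medians of 0.22 for the loci and 0.01 for all tested rows, whose calls changed from 3420 higher and 1598 lower to 2353 and 2327.

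The single KD-2cell column has no replicate. Its summed level was 935 FPKM, and its median change from the Ctrl mean was 0.09. For 74 loci it was within the range of the 4 Ctrl columns, for 40 above all of them and for 19 below. For 69 loci it was within the range of the KD-1cell columns, for 59 below all of them and for 5 above. XLOC_051958 had 91.5 FPKM, close to its highest Ctrl column, and XLOC_023236 had 4.73 FPKM, within its Ctrl range.

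The knockdown and the Early2c knockout share no samples, and the calls of higher level overlapped for the loci as they did for all tested rows. Of the 53 loci higher in KD-1cell 45 were also higher in the Early2c knockout, which is 84.9% of the 53 and 60.8% of the 74. Over all rows tested in both, 2279 were shared, 66.8% of 3412 and 57.4% of 3971. Across the 133 loci the changes had a Pearson's r of 0.48 and a Spearman's rho of 0.53, with no value over all rows as a baseline. XLOC_018412 was among the 5 largest rises in both experiments.

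**Figure D5:**
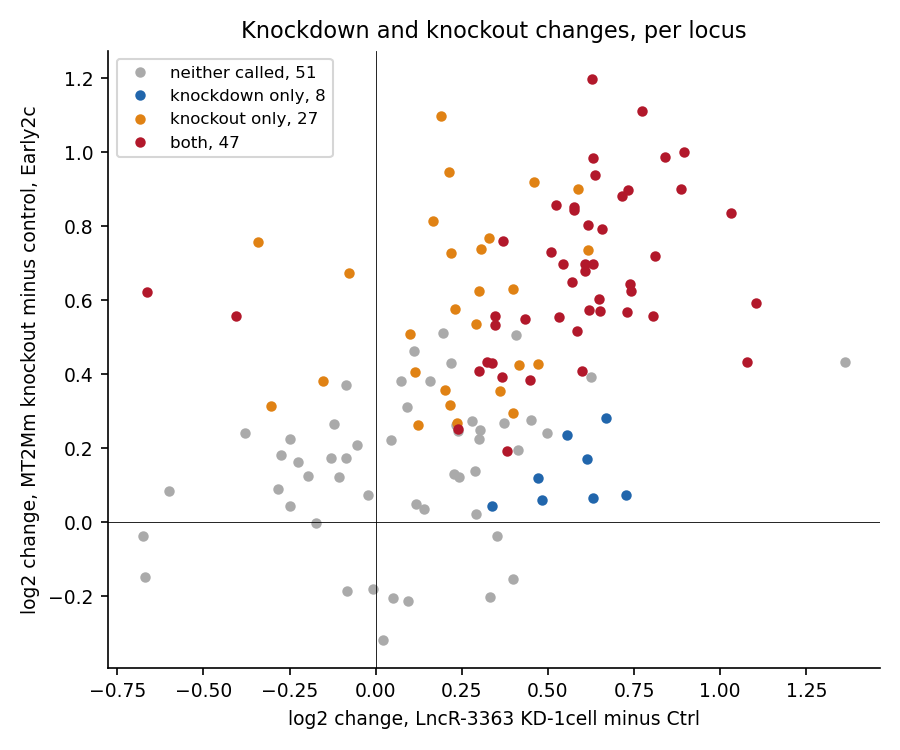
Change of each of the 133 loci in LncR-3363 KD-1cell against Ctrl (x axis) and in the MT2Mm knockout against control at Early2c (y axis), both as log2 of FPKM + 0.5, coloured by call. Of the 47 loci called in both, 45 lie at upper right and 2, XLOC_027486 and XLOC_028983, at upper left.

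Loci that fell further between Late1c and Early2c in the MT2Mm controls had larger changes in the knockdown (Pearson's r -0.60, Spearman's rho -0.63 across 133 loci, no shared samples). This correlation too has no value over all rows as a baseline. Of the 53 loci higher in the knockdown 50 were among the 99 that fell in those controls, which is 94.3% of the 53 and 50.5% of the 99. Over all rows tested in both, 3008 were shared, 88.2% of 3412 and 56.2% of 5355. The Early2c knockout effect and the fall in the controls share the Early2c control columns, so no correlation was computed between them.

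The other sets of maternal rows moved in both experiments too (medians are over all rows of a set, tested or not). In the Early2c knockout 370 of the 614 protein-coding rows rose and 31 fell (median 0.31), 55 of the 119 lncRNA rows rose and 2 fell (0.27), 36 of the 63 tested early XLOC rows rose and 0 fell (0.49), and 45 of the 101 tested kept ones rose and 4 fell (0.27). In the knockdown 256 of the protein-coding rows rose and 90 fell (median 0.22), 40 of the lncRNA rows rose and 5 fell (0.27), 23 of the 45 tested early XLOC rows rose and 2 fell (0.42), and of the 101 tested kept ones 13 rose and 15 fell (0.01). Differences between the sets were not tested.

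Annotated maternal genes, a list of 38 of which 37 were tested, gave these counts. From Late1c to Early2c of the controls 26 fell and 7 rose. In the Early2c knockout 21 rose and 6 fell, in the knockdown 19 rose and 3 fell, and in the Late1c knockout 0 changed. Of all tested rows 45.7% fell and 33.5% rose in the controls. In the Early2c knockout 33.4% of them rose and 15.6% fell, and in the knockdown 29.8% and 13.9%. Zar1l, a homologue of the oocyte RNA-binding protein ZAR1, fell in the controls from 227 ± 12.9 to 21.5 ± 1.11 FPKM (SD, n = 3), rose to 73.4 ± 3.16 FPKM in the Early2c knockout (1.75 ± 0.05, adjusted p = 1.9e-08) and rose by 1.38 ± 0.12 in the knockdown. Padi6, a component of the oocyte's cytoplasmic lattices, rose by 1.20 and 0.89, and Ooep, of the subcortical maternal complex, by 1.43 and 0.89. H1foo, the oocyte linker histone, differed: it rose by 1.54 ± 0.12 in the knockdown and fell by 0.33 in the Early2c knockout.

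Factors of maternal RNA decay, a list of 53 with 50 rows and 46 tested, moved both ways. From Late1c to Early2c of the controls 19 rose and 24 fell, in the Early2c knockout 17 rose and 8 fell, in the knockdown 18 rose and 7 fell, and in the Late1c knockout 1 rose. Of all tested rows 33.4% rose and 15.6% fell in the Early2c knockout, and 29.8% and 13.9% in the knockdown. The median of the list was 0.08 in the Early2c knockout and 0.19 in the knockdown, against 0.11 and 0.12 over all tested rows. Most genes named below fell in the Early2c knockout, whereas more of the list rose than fell. Btg4 was at 565 ± 3.74 FPKM in the Late1c and 812 ± 31.9 in the Early2c control (0.52 ± 0.05) and at 716 ± 11.4 in the Early2c knockout (-0.18 ± 0.05, adjusted p = 0.0084). Pan2 and Pan3, the subunits of a deadenylase, rose in the controls by 0.87 and 0.88 and fell in the Early2c knockout by 0.27 and 0.35. Pabpn1l, an oocyte poly(A)-binding protein that works with BTG4, fell in the controls from 114 ± 4.16 to 10.0 ± 0.551 FPKM and rose to 24.2 ± 0.656 FPKM in the Early2c knockout (1.23 ± 0.06) and by 1.04 ± 0.10 in the knockdown. Pum2, a Pumilio protein that binds RNA and represses it, fell in the knockdown from 42.5 ± 1.34 to 7.69 ± 1.08 FPKM (SD, n = 4; -2.40 ± 0.09, adjusted p = 1.5e-07), and in the Early2c knockout by 0.24. Their part in the levels of the loci was not tested.

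Genes of the 2-cell stage stood beside these results as follows. Of 46 tested, 42 rose and 4 fell from Late1c to Early2c in the controls, where 33.5% of all tested rows rose and 45.7% fell. In the Early2c knockout 6 rose and 15 fell, where 33.4% of all tested rows rose and 15.6% fell. In the knockdown 45 were tested, of which 4 rose and 4 fell (median -0.26), where 29.8% of all tested rows rose and 13.9% fell. Their summed level was 1174 to 1234 FPKM in the Early2c control columns, 1049 to 1110 in the Early2c knockout and 190.4 to 199.8 in all Late1c columns. Every Early2c knockout column lay below every Early2c control column. The part of developmental timing in the result was not tested.

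Few markers of other cells reached 1 FPKM in all columns of an Early2c group. In each of control and knockout, 1 of 19 cumulus and granulosa markers and 2 of 15 sperm and testis markers did. The 19 cumulus and granulosa markers summed to 9.58 to 10.6 FPKM in the Early2c control and 13.9 to 14.3 in the knockout, and both markers tested rose. Most of it was Nr5a2, which early embryos also express (8.13 ± 0.393 and 11.3 ± 0.196 FPKM, SD, n = 3), while Amh stayed under 0.1 FPKM on average and 5 markers were at 0 in each group. In the knockdown experiment the sums were 12.5 to 14.6 FPKM in Ctrl and 15.2 to 23.7 in KD-1cell. The 15 sperm and testis markers summed to 43.5 to 45.8 FPKM in the Early2c control and 40.1 to 44.6 in the knockout. The part of such cells in the results was not tested.

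Levels between experiments differed for most loci. The Late1c control was below the zygote by a median of 1.33 on the log2 scale and Ctrl by 1.73, with 8 and 5 loci above it. XLOC_019797 was one of these, with 20.3 and 17.8 FPKM in the zygote and 53.6, 55.3 and 47.2 in the Late1c control. Strain, time and possibly the library kit differ between these experiments and cannot be told apart. Of 47 rows of 2-cell genes, 45 reached 1 FPKM in all Ctrl columns and 45 in all Early2c control columns. In the zygote 10 did so and in the Late1c control 9. By these genes Ctrl was nearer to the Early2c control than to the zygote, so its difference from the zygote may hold a difference of stage. Among the 133 names, 2 pairs carry consecutive numbers, XLOC_013985 with XLOC_013986 and XLOC_023235 with XLOC_023236. Over the 43 columns their log2 levels had a Pearson's r of 0.94 and 0.89, which is given as a description, and whether such pairs are parts of 1 transcript was not examined.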

How the data were processed

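The submitters' processing notes name cutadapt 1.18, HISAT2 2.1.0, Cufflinks, StringTie 1.3.4d, Cuffdiff 2.2.1 and build GRCm38, without their roles. The authors deposited a single table of FPKM (59119 rows, 43 columns), so depth is unknown. Each column was assigned through its name; names of the 4-cell to blastocyst, time and knockdown columns point to a group but no single sample. Whether replicates came from separate embryo pools is not stated, so p-values measure the spread between these columns. limma 3.58.1 (R 4.3.3; lmFit, eBayes with trend) was fitted to log2(FPKM + 0.5) of rows that reached 1 FPKM in as many columns as the smallest group has. Two-sided p-values were adjusted by Benjamini-Hochberg over all rows of a fit, with calls under 0.05; changes on this scale understate those of low rows. The fits held the 3 times, KD-1cell with Ctrl, the 4 MT2Mm groups, and 4-cell to blastocyst, and were tested on simulated data. Contrasts with MII, E2-cell or L2-cell were described, not tested. Medians run over all 133 loci, those of the other sets of maternal rows over all their rows, and those of the gene lists over the tested genes.

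The loci and lists were chosen with earlier results of these data known. Named loci are the 10 highest in MII, up to 5 called rises and falls per comparison without overlap of columns, those next to the thresholds, the 4 highest in L2-cell and in the blastocyst, and the 3 highest and lowest in zygote over MII; XLOC_019797, XLOC_000027 in the knockout and the loci with consecutive numbers were added after their values were seen, as were some of the listed genes. Python 3.11.15, NumPy 2.4.6, pandas 2.3.3 and Matplotlib 3.10.9 made tables and figures. Alternatives were pseudocounts, no filter, median-of-ratios scaling, a replicate block, narrower fits and leaving out single columns.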

Additional observations from a re-analysis of the deposited data

Results flagged for a closer look

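In 6 of 112 groups of 4 columns a value stood apart from the others, where chance gives about 1 in 20. In Ctrl, XLOC_004810 had 0.898 FPKM in 1 column and 1.58 to 1.66 in the others. In KD-1cell, XLOC_001349 had 9.59 FPKM in 1 column against 4.31 to 4.95, XLOC_021100 was at 0 in 1 column against 0.475 to 0.556, XLOC_004799 had 7.64 FPKM against 11.1 to 11.6, XLOC_013408 had 19.9 FPKM against 30.3 to 30.6, and XLOC_020169 had 4.94 FPKM against 4.07 to 4.20.

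The knockout effect differed between Late1c and Early2c by the interaction term, higher at Early2c for 70 loci and lower for 1. The named loci were XLOC_051359 (1.41 on the log2 scale), XLOC_004799 (1.40), XLOC_004810 (1.39), XLOC_047837 (1.179), XLOC_009397 (1.12) and XLOC_013408 (-0.56). In the single KD-2cell column, which entered no comparison, 40 loci lay above every Ctrl column.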

How the results depend on the processing

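Counts of loci kept within 1.5 times under pseudocounts of 0.1 and 1 FPKM, except that at 1 FPKM 1 locus fell in the Early2c knockout. With no filter, which tests 33938 to 43218 rows, the counts were 0 lower at 17 against 14 hours, 1 higher and 13 lower at 20 against 17, and 18 higher and 2 lower at 20 against 14. They were 35 higher in the knockdown, 0 lower in the interaction and 2 higher from Late1c to Early2c of the controls. In the blastocyst against 4-cell they were 4 higher and 72 lower, which rest on levels near 0 and are no test of a fall. Columns scaled by the median of ratios gave 4 lower at 17 against 14 hours, 3 higher and 21 lower at 20 against 17, 7 lower in the knockdown, 3 lower in the Early2c knockout and 11 higher in the controls.

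Replicate numbers did not pair the columns: residuals of equal number correlated at -0.138 to 0.153. With the replicate block, 1 locus was higher at 20 against 17 hours, 4 were lower in the knockdown and 0 were lower in the interaction, and 74 were higher in the Early2c knockout. The 4-cell columns carry other numbers than the blastocyst's, so that comparison had no block. With only the groups of the contrast 1 was higher at 20 against 17 hours.

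Leaving out 1 column gave 0 to 1 lower at 17 against 14 hours, 1 to 2 higher and 10 to 16 lower at 20 against 17, 17 to 21 higher and 2 to 5 lower at 20 against 14, 0 to 1 lower in the Early2c knockout and in the interaction, and 3 to 5 lower in the blastocyst against 4-cell; where an arm kept 1 column, it is assumed to vary like the other groups. The other counts, the 53 rises in the knockdown (40 to 51), the 74 in the Early2c knockout (68 to 74) and the 99 falls in the controls (93 to 100) among them, moved by less than 1.5 times. No result reversed. The causes of these differences were not tested. Depth is unknown, and levels under 1 FPKM are uncertain.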
